A study of Mus musculus with 6 samples.

Results

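The genes described here are 10 regulators of transcription that act in meiotic and post-meiotic male germ cells, namely Crem, Creb3l4, Fhl5, Tbpl1, Taf7l, Gtf2a1l, Brdt, Mybl1 (which encodes A-MYB), Rfx2 and Sox30. Taken for each gene were all probe sets annotated with exactly one of these symbols, which gave 20 of the 45037 probe sets in the deposited table. Of these, 17 were bright enough to be tested, among 27022 tested in all, and they stood for 9 of the 10 genes. Fhl5 had only a probe set below the filter.

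RNA of whole testes was measured on Affymetrix Mouse Genome 430 2.0 arrays, 3 from Dazap1 Fn/Fn mutant mice (Fn) and 3 from wild-type mice (Wt). Both genotypes were on a mixed C57BL/6 and 129 background and all testes were taken at postnatal day 21 (P21). DAZAP1 is an RNA-binding protein abundant in the testis, and the Fn allele (floxed, with the neo cassette left in) still makes an aberrant protein that carries an inserted segment between its RNA-binding domains, so that Fn is not a null. Homozygotes are few because most die around birth, survivors are growth retarded, and the number of animals behind each RNA preparation was not given, so that every p-value is set against the spread among these 6 samples only, which may be partly technical.

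Late male germ cells run a transcription programme of their own, in which several general factors are replaced by germ cell forms. A-MYB switches on meiotic genes and piRNA precursors in pachytene spermatocytes, together with its target RFX2, which also drives genes of cilia and spermatids. In round spermatids CREM, a cyclic AMP response element (CRE) binding protein, activates genes for sperm structure with its coactivator FHL5, and TBPL1, TAF7L, GTF2A1L and BRDT take the places of, or work beside, their relatives in the general transcription machinery.

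Most of the regulators had less RNA signal in Fn testes. Of the 17 probe sets tested, 11 were lower in Fn, 2 were higher and 4 were not called (limma, Benjamini-Hochberg adjusted p under 0.05 over all 27022 probe sets). Over all probe sets tested, 20.2% were lower and 41.8% were higher. The 3 Fn signals lay below the 3 Wt signals for 11 of the 17, against 22.1% of all probe sets, and above them for 2, against 46.6%. The median log2 change (Fn minus Wt) was -0.66 for the 17 and 0.35 for all. With each gene taken by its brightest tested probe set, 7 of 9 genes were lower, 1 was higher and 1 was not called, where 24.7% of the 13447 genes tested were lower and 44.9% higher.

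**Figure D1:**
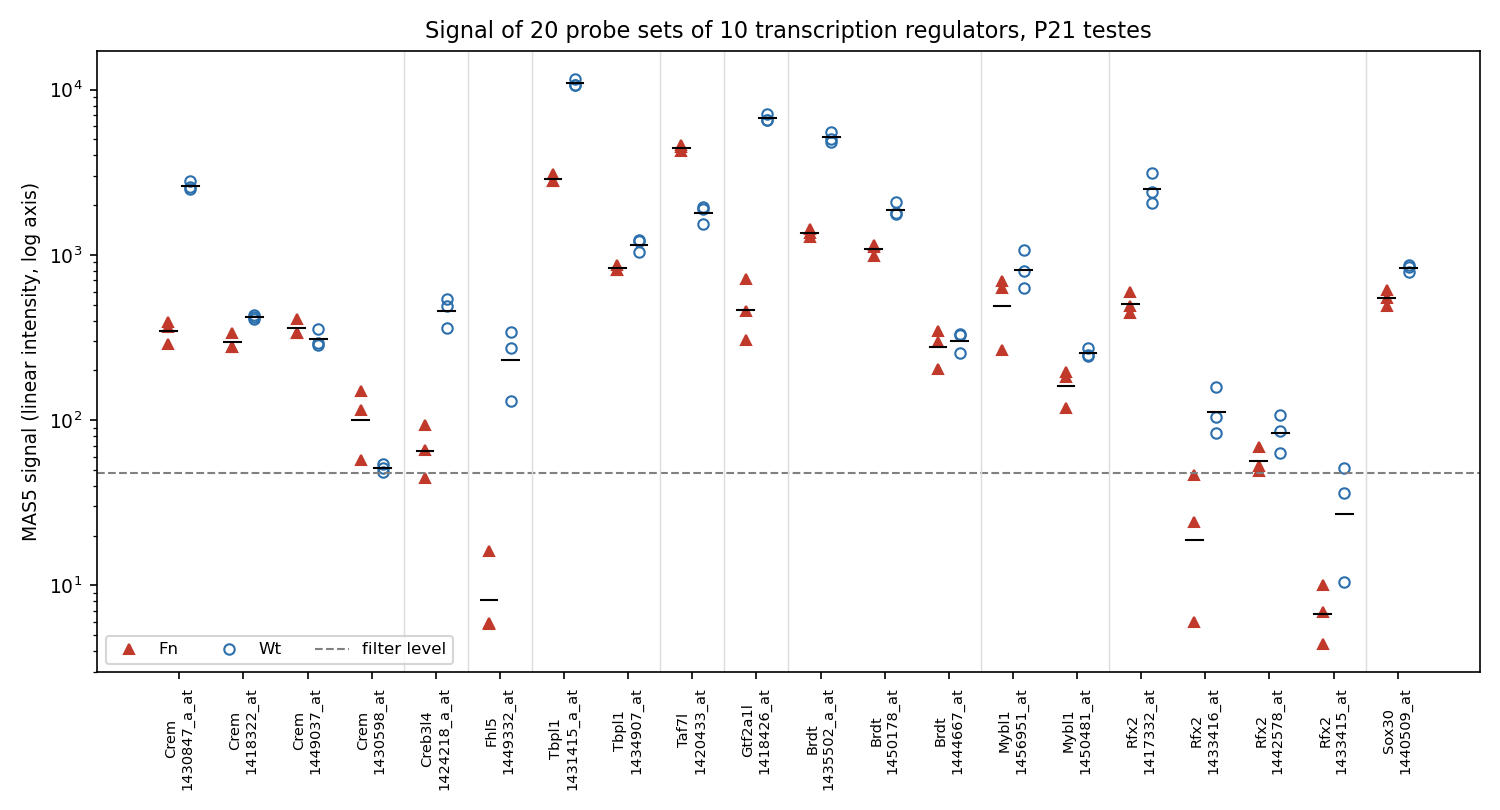
MAS5 signal (linear intensity on a log axis) of the 20 probe sets, one column each, in 3 Fn testes (triangles, left) and 3 Wt testes (open circles, right). Geometric means are drawn as short bars, with a dashed line at 48.0, the level below which probe sets were not tested. The largest gap among the tested probe sets is that of Gtf2a1l, and Taf7l is the one probe set with bright signals in both genotypes that is clearly higher in Fn.

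Whole testes mix many cell types, and fewer cells of a type cannot be told apart from less RNA per cell. The study was concerned that pachytene cells of P21 Fn testes might lag behind those of Wt because the mutants grow slowly. Such a delay would be confounded with genotype and was not tested. The markers of later germ cells moved in the same direction as most of the regulators. All 6 of 6 pachytene markers were lower in Fn, where 24.7% of all genes were lower and 44.9% higher. Their summed signals were 9487 to 13393 in Fn and 43054 to 49629 in Wt. Ccna1, 1 of the 6, passed the filter only through Wt and so could only be lower. Of the round spermatid markers, all 5 tested of 6 were lower (sums 1921 to 2330 in Fn and 16084 to 18997 in Wt), of which Acrv1 passed the filter only through Wt. Of the elongating spermatid markers 3 of 4 tested were lower (124.1 to 177.9 in Fn and 1403 to 2783 in Wt), each of which passed it only through Wt. Smcp alone gave 1336, 910.2 and 1210 of the Wt sums, while Prm1, Prm2 and Tnp1 overlapped between genotypes. By the study's account round spermatids are the latest germ cells at P21, so elongating cells in Wt are not implied. The study picked Ccna1, Piwil1 and the untested Tssk2 from these samples as lowered genes. The 6 markers of early meiotic prophase gave overlapping sums (26532 to 28698 in Fn and 27185 to 29831 in Wt) but did not move together, since Dmc1 (log2 change 1.01) and Prdm9 (1.11) were higher, Spo11 (-1.41) was lower and 3 were not called. In contrast, 6 of 7 Sertoli cell markers (34694 to 35439 in Fn and 21784 to 25049 in Wt), 4 of 4 tested spermatogonial markers (1941 to 2293 in Fn and 1198 to 1481 in Wt) and 3 of 4 peritubular myoid markers (13578 to 14551 in Fn and 7903 to 9301 in Wt) were higher. Markers of other somatic cells were less uniform. With 4 tested for each type, 2 Leydig cell markers (sums 6001 to 11818 in Fn and 6051 to 10021 in Wt), 2 macrophage markers and no endothelial marker were higher, and none was lower. Of the pan-germ-cell markers, Dazl was higher (log2 change 0.39) and Ddx4 lower (-0.67). The share of each regulator's change that goes with these cell types was not tested. The targeted gene, Dazap1, gave signals of 2538, 2735 and 2820 in Fn and 4323, 4462 and 5046 in Wt, a log2 change of -0.77 (limma adjusted p = 6.7e-05), and where its probe set lies relative to the altered part of the allele was not given.

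Crem was the one gene of the 10 with probe sets called in both directions. It had 4, which read different stretches of RNA from a gene known for alternative promoters and for both activator and repressor products. The brightest, 1430847_a_at, gave 368.2, 391.0 and 287.1 in Fn testes, against 2508, 2593 and 2784 in Wt testes. All Fn signals were several times below the dimmest Wt signal. The log2 change was -2.93 (SE 0.13, 95% interval -3.22 to -2.63, limma adjusted p = 2.6e-07), or 7.59-fold lower. The study chose Crem and Creb3l4 from these same samples as lowered genes, so their direction on these arrays is not independent evidence. It also reported, without showing the values, that real-time RT-PCR found the genes it chose lower in mutant testes. By RT-PCR it further found a larger share of Crem transcripts lacking an internal exon in P21 and adult Fn testes. Where that exon lies relative to these probe sets was not given.

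The other Crem probe sets did not show a drop of that size. Signals of 1418322_at were 278.5, 335.5 and 277.1 in Fn and 420.5, 411.9 and 430.3 in Wt, so the genotypes did not overlap but the gap was small, with a log2 change of -0.51 (SE 0.14, limma adjusted p = 0.0091). Those of 1449037_at were 337.0, 334.9 and 411.4 in Fn and 357.1, 282.9 and 293.4 in Wt. These overlapped, and the change of 0.22 (95% interval -0.13 to 0.56, limma adjusted p = 0.25) was not called. The dimmest, 1430598_at, gave 114.6, 149.9 and 57.3 in Fn and 51.2, 54.5 and 48.8 in Wt. It was higher in Fn, with all Wt arrays close to the filter level and the Fn arrays spread widely, at a log2 change of 0.95 (SE 0.36, limma adjusted p = 0.044). This call was lost in 10 of 17 alternative settings, where adjusted p ranged over 0.0036 to 0.16. Among the arrays whose removal ended it were Fn replicate 1 (0.85, adjusted p = 0.13), Fn replicate 2 (0.65, 0.16) and each of the Wt replicates in turn (0.91 to 0.99, adjusted p 0.07 to 0.10).

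Within each array the ratio of 1 Crem probe set to another does not depend on how the array was scaled. The log2 ratio of 1430847_a_at to 1449037_at was -0.52 to 0.22 over the Fn arrays and 2.81 to 3.25 over the Wt arrays, a difference of -3.14. Against 1430598_at the difference was -3.88. For 1418322_at the differences were smaller, -0.72 against 1449037_at and -1.46 against 1430598_at. In all 4 ratios the genotypes were fully apart, which gives the smallest p that an exact two-sided permutation test of 3 against 3 allows, 0.10 (0.15 after Benjamini-Hochberg adjustment over the 9 probe set pairs compared). The fifth Crem pair, 1449037_at over 1430598_at, did not separate the genotypes (difference -0.74, exact permutation p = 0.40, 0.45 adjusted). The pairs were those whose calls differed, so the differences are a description. Which Crem transcripts each probe set reads was not given in the files, and 2 of the 4 had no source sequence listed in the annotation used here.

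The 5 genes whose 6 log2 signals, each taken relative to its Wt mean, lay closest to those of Crem 1430847_a_at were Dkkl1, an acrosomal protein of spermatids, Ptpdc1, Cep128, Enkur, a protein of sperm flagella and cilia, and Ypel1. Their root mean square distances were 0.07, 0.075, 0.087, 0.089 and 0.098 on the log2 scale among 12684 genes compared over 6 arrays. Their log2 changes lay between -2.98 and -2.89, near that of Crem because they were picked for this closeness. Dkkl1 is also among the round spermatid markers used above.

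Creb3l4 encodes a bZIP protein of the CREB3 family, made in spermatids and anchored in the membrane of the endoplasmic reticulum. Its single probe set, 1424218_a_at, gave 66.0, 93.8 and 44.5 in Fn and 543.4, 359.3 and 493.9 in Wt. No Fn signal came near a Wt signal. The log2 change was -2.82 (SE 0.28, limma adjusted p = 3.1e-05), 7.05-fold lower. The gene lies on the minus strand at chr3:90237498-90244582 (GRCm38.p6, as are all positions here).

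Fhl5, the LIM-only coactivator of CREM (chr4:25199907-25242852), was bright in Wt alone. Its probe set 1449332_at gave 5.9, 16.1 and 5.8 in Fn and 343.0, 130.2 and 274.0 in Wt. The Fn signals were far below the filter level of 48.0 and the mean over arrays did not pass it. With Fn set at that level, Fhl5 was at least 4.80-fold lower in Fn. The Wt signals themselves spread over a wide range.

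Among the germ cell forms of general factors, Gtf2a1l had the largest tested fall and Taf7l rose. GTF2A1L (also called ALF) is the germ cell counterpart of the large subunit of TFIIA, the factor that steadies TBP on promoters. Gtf2a1l 1418426_at gave 455.2, 713.7 and 304.9 in Fn, against 6546, 6590 and 7096 in Wt. The Fn arrays spread by more than the Wt arrays but none approached them. The log2 change was -3.86 (SE 0.25, 95% interval -4.41 to -3.32, limma adjusted p = 1.6e-06), or 14.6-fold lower, and 2.04% of the 13447 genes fell by more.

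TBPL1 (TRF2) is a TBP-like protein that spermatids need to develop, encoded at chr10:22703877-22732666. Probe set 1431415_a_at was very bright, at 2811, 3097 and 2787 in Fn and 10700, 10706 and 11609 in Wt. The replicates agreed closely and the genotypes were well apart, with a log2 change of -1.93 (SE 0.08, limma adjusted p = 1.5e-07). The second probe set, 1434907_at, gave 814.1, 866.9 and 814.7 in Fn and 1224, 1043 and 1207 in Wt. It was lower too, but by 1.39-fold only (log2 change -0.47, 95% interval -0.72 to -0.23, limma adjusted p = 0.0038), and its interval did not overlap that of the first probe set (-2.09 to -1.76).

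BRDT, the testis member of the BET family, reads acetylated histones in spermatocytes and spermatids (chr5:107331116-107387061). Brdt 1435502_a_at gave 1432, 1355 and 1280 in Fn and 4848, 5054 and 5582 in Wt, a log2 change of -1.93 (SE 0.09, limma adjusted p = 3.0e-07). Brdt 1450178_at gave 984.3, 1144 and 1119 in Fn and 1793, 1758 and 2091 in Wt, a change of -0.80 (SE 0.11, limma adjusted p = 0.00021). In both the genotypes stood apart. Brdt 1444667_at gave 348.2, 295.9 and 203.4 in Fn and 330.4, 255.0 and 325.9 in Wt. These overlapped, and the change was -0.13 (95% interval -0.61 to 0.35, limma adjusted p = 0.61). It turned to 0.089 without Fn replicate 3 and to 0.047 with array weights. The log2 ratio of 1435502_a_at to 1444667_at was lower by 1.80 in Fn, and fully apart between genotypes (exact permutation p = 0.10, the smallest possible, and 0.15 adjusted). That of 1450178_at to 1444667_at was lower by 0.67 and overlapped (exact permutation p = 0.20, 0.26 adjusted).

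Taf7l was the exception. It encodes a germ cell form of the TFIID subunit TAF7 and lies on the X chromosome at chrX:134460116-134476505. Its probe set 1420433_at gave 4471, 4259 and 4621 in Fn, against 1896, 1960 and 1546 in Wt. Every Fn signal was more than double any Wt signal. The log2 change was 1.31 (SE 0.10, 95% interval 1.08 to 1.54, limma adjusted p = 6.6e-06), 2.48-fold higher, and stayed between 1.15 and 1.38 over 17 alternative settings. The X chromosome is silenced in pachytene spermatocytes, and X-linked genes as a whole were shifted in the same direction. Of 461 X-linked genes tested, 398 were higher in Fn (86.3%) and 15 lower (3.25%), with a median log2 change of 1.01, against a median of 0.32 over all 13447 genes. The rise of Taf7l was exceeded by 52 X-linked genes and by 347 genes in all. Spermatogonial marker sums, given above, were higher in Fn too. The part of the X-linked shift or of the mix of cell types in the rise of Taf7l was not tested.

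**Figure D2:**
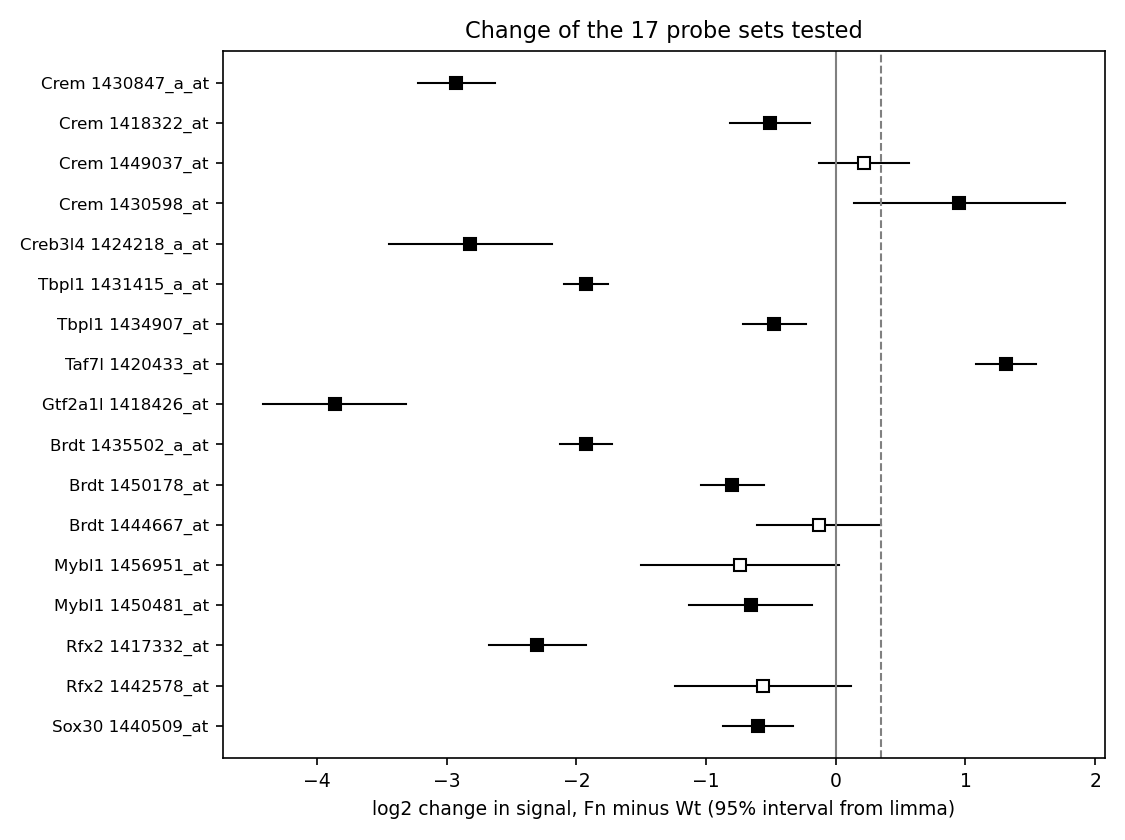
Log2 change (Fn minus Wt) for each of the 17 probe sets tested, with 95% intervals from limma. Filled squares passed an adjusted p under 0.05 and open squares did not. A solid line stands at 0, and a dashed one at 0.35, the median over all probe sets tested. Crem, Tbpl1, Brdt and Rfx2 each have 1 probe set far to the left and at least 1 other much closer to 0.

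Of the DNA-binding regulators of meiosis and spermatids, Mybl1 showed the least certain change. Mybl1 (chr1:9667407-9700439) had 2 probe sets. Signals of 1456951_at were 699.7, 630.3 and 264.3 in Fn and 800.3, 1075 and 628.7 in Wt. Fn replicates 1 and 2 reached just into the Wt range and Fn replicate 3 lay far below. The log2 change was -0.74 (95% interval -1.50 to 0.02) and was not called (limma adjusted p = 0.083). It passed with the replicate number as a block (0.0081), with arrays centred on their medians (0.023) and without Fn replicate 1 (-0.997, 0.039). It shrank to -0.295 without Fn replicate 3 (0.24) and to -0.54 without Wt replicate 2 (0.24), and adjusted p over all 17 alternatives ranged over 0.0081 to 0.24.

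Signals of 1450481_at were 196.1, 182.1 and 118.6 in Fn and 248.3, 274.5 and 243.6 in Wt. Here the genotypes did not overlap, and the log2 change of -0.66 (SE 0.21, limma adjusted p = 0.021) was called. The call was lost without Fn replicate 3 (-0.43, 0.055) and without Wt replicate 2 (-0.60, 0.064). The ratio of the 2 probe sets did not separate the genotypes (difference -0.08 log2, exact permutation p = 0.70, also 0.70 adjusted), and leaving out Fn replicate 3 or Wt replicate 2 turned it to 0.14 or 0.066. The genes closest to Mybl1 1456951_at were Mia3, Dcaf7, Tra2b, Zkscan7 and Ago4, at root mean square distances of 0.205 to 0.226 on the log2 scale, farther than those found for Crem. All 5 had their lowest signal in Fn replicate 3, as did Mybl1 1456951_at. They were picked for closeness to that probe set, so this shared low is not a separate finding.

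Rfx2 was much lower in Fn. Its brightest probe set, 1417332_at, gave 445.4, 594.5 and 492.1 in Fn and 2070, 2402 and 3132 in Wt, fully apart, with a log2 change of -2.30 (SE 0.17, limma adjusted p = 3.6e-06), 4.93-fold lower. Rfx2 1442578_at was dim, at 49.5, 68.9 and 52.7 in Fn and 85.3, 106.8 and 62.9 in Wt. One Fn signal exceeded the lowest Wt signal, and the change of -0.56 (95% interval -1.24 to 0.12) was not called (limma adjusted p = 0.13, and 0.04 with array weights). The log2 ratio of 1417332_at to 1442578_at was lower by 1.74 in Fn and fully apart between genotypes (exact permutation p = 0.10, 0.15 adjusted). The remaining 2 were not tested. Rfx2 1433416_at gave 46.3, 24.3 and 6.0 in Fn and 103.8, 84.0 and 159.4 in Wt, which was at least 2.32-fold lower in Fn with Fn set at 48.0. Rfx2 1433415_at gave 4.4, 6.9 and 10 in Fn and 36.1, 51.0 and 10.5 in Wt, with both means under that level, so no fold is given.

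SOX30, an HMG-box factor that switches on spermatid genes, changed modestly. Sox30 1440509_at (gene at chr11:45979069-46017992) gave 493.3, 613.1 and 545.5 in Fn and 791.9, 864.0 and 838.9 in Wt. The genotypes did not overlap, and the log2 change was -0.60 (SE 0.12, limma adjusted p = 0.0020), 1.52-fold lower. Ordered by the fall of their brightest probe set, the genes ran Gtf2a1l, Crem, Creb3l4, Rfx2, Brdt, Tbpl1, Mybl1, Sox30 and Taf7l. Between neighbours in this order, the 95% intervals were apart for Gtf2a1l and Crem, Tbpl1 and Mybl1, and Sox30 and Taf7l. They overlapped for every other neighbouring pair, so the order within those pairs is not resolved, although the intervals of Crem and Creb3l4 lay wholly apart from those of Brdt and Tbpl1.

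Across the 20 probe sets the replicates had no fixed order, but Fn replicate 3 was the lowest Fn array in 12 and Fn replicate 2 the highest in 12. The pachytene marker sums ran the same way, at 10450, 13393 and 9487 in Fn replicates 1, 2 and 3. So did the median signal over all probe sets of each array, at 98.7, 105.2 and 90. How often these arrays were lowest or highest over all probe sets was not counted. Among Wt arrays the lowest was replicate 1, 2 or 3 in 6, 8 and 6 probe sets. Whether the marker sums or the array medians account for the spread was not tested.

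The promoters of 4 regulators are shown because they hold matches to the motifs that CREM, A-MYB or RFX2 bind and because these genes span the range of responses, Gtf2a1l, Creb3l4 and Rfx2 being lower in Fn and Taf7l higher. Each runs 5′ to 3′ on the strand of the gene, from 250 bases before to 50 bases after a start annotated by RefSeq in GRCm38.p6. Capitals mark every match on either strand to the short CRE motif TGACG, the MYB motif CAACNG and the RFX motif GTTGCC. Rfx2 is at chr17:56830959-56831258, minus strand, Gtf2a1l at chr17:88668410-88668709, plus strand, Creb3l4 at chr3:90242501-90242800, minus strand, 1 of its annotated starts, and Taf7l at chrX:134476441-134476740, minus strand.
Rfx2: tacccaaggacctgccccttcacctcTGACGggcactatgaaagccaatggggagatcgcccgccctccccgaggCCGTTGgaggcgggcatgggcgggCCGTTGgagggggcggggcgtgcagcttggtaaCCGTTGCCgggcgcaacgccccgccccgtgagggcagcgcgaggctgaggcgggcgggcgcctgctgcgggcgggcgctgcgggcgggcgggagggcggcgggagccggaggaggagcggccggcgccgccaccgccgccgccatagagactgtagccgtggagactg
Gtf2a1l: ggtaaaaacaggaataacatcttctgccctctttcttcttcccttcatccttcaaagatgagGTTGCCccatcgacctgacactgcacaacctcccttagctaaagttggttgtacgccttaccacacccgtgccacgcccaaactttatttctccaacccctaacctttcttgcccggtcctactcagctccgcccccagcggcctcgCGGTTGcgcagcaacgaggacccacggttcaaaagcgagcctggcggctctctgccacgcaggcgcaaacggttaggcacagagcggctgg
Creb3l4: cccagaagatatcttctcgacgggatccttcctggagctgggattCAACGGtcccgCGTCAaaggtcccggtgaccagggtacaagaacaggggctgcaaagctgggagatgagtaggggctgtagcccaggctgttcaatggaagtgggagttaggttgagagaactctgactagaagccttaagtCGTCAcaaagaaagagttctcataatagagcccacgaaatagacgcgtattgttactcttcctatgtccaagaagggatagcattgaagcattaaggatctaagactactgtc
Taf7l: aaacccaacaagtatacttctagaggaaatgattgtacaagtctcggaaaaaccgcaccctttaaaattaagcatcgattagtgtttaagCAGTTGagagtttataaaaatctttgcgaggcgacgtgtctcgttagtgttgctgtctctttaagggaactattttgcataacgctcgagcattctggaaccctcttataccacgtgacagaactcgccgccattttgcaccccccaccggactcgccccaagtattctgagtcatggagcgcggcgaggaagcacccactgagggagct

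The Rfx2 promoter held 3 matches to the MYB motif, starting at -175, -151 and -118 from the start, and an RFX motif at -116 that overlaps the last of them, besides a short CRE motif at -224. The Gtf2a1l promoter held an RFX motif at -188 and a MYB motif at -41. Creb3l4 had short CRE motifs at -194 and -63 and a MYB motif at -205, and Taf7l, the gene that was higher, had a MYB motif at -160. Counted by promoter, the MYB motif occurred in 4 of the 11 promoters of the 8 genes with an entry (36.4%), against 35% of all 32851 promoters, the short CRE motif in 3 of 11 (27.3%) against 20.8%, and the RFX motif in 2 of 11 (18.2%) against 12.5%. The full CRE, TGACGTCA, which contains the short one, was in none of the 11 and in 1.79% of all. The promoters of Fhl5, Tbpl1, Brdt and Sox30 held no match in this window, and no entry was used for Mybl1 or Crem. A match describes letters only and says nothing of binding.

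The relatives of these regulators that work in cells in general changed in both directions. Of 20 such genes, 18 had a probe set of their own and 16 were tested. Of these, 10 were higher in Fn, 4 lower and 2 not called, where 44.9% of all genes were higher and 24.7% lower. The share lower was thus that of genes at large. The median log2 change was 0.48, against 0.32 over all genes. These counts take each gene by its brightest tested probe set. With the mean over a gene's probe sets, 7 were higher and 3 lower. Higher relatives included Fhl1 (log2 change 1.16, limma adjusted p = 1.2e-05) and Fhl2 (1.02, 2.0e-05), LIM proteins of muscle and other tissues related to FHL5, and Creb3l2 (1.15, 7.3e-05), a relative of Creb3l4 that acts in secretory cells. The sums of Sertoli and peritubular myoid markers given above were higher in Fn too, and their part in these changes was not tested. Rfx1 (-0.004, 95% interval -0.28 to 0.27) and Rfx5 (-0.25, -0.56 to 0.06) were not called, and Fhl3 and Myb were too dim to test.

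The 4 lower relatives came from the TBP, TFIIA and BET families. Tbp, the TATA-binding protein, gave 2129, 1942 and 1999 in Fn and 4150, 4039 and 4055 in Wt, fully apart, with a log2 change of -1.01 (SE 0.08, limma adjusted p = 5.6e-06). Gtf2a2, the small subunit of TFIIA, which pairs with either large subunit, changed by -0.73 (0.00040), Brd2 by -0.51 (0.00053) and Brd3 by -0.54 (0.0078). In each of these families the germ cell form had a larger fall at its brightest probe set, -1.93 for Tbpl1, -3.86 for Gtf2a1l and -1.93 for Brdt, but Tbpl1 1434907_at (-0.47) fell less than Tbp, and the -0.13 of Brdt 1444667_at was nearer 0 than the changes of Brd2 and Brd3. These differences were not tested. The large TFIIA subunit Gtf2a1 and the TAF7 gene itself were among the 10 higher relatives.

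**Figure D3:**
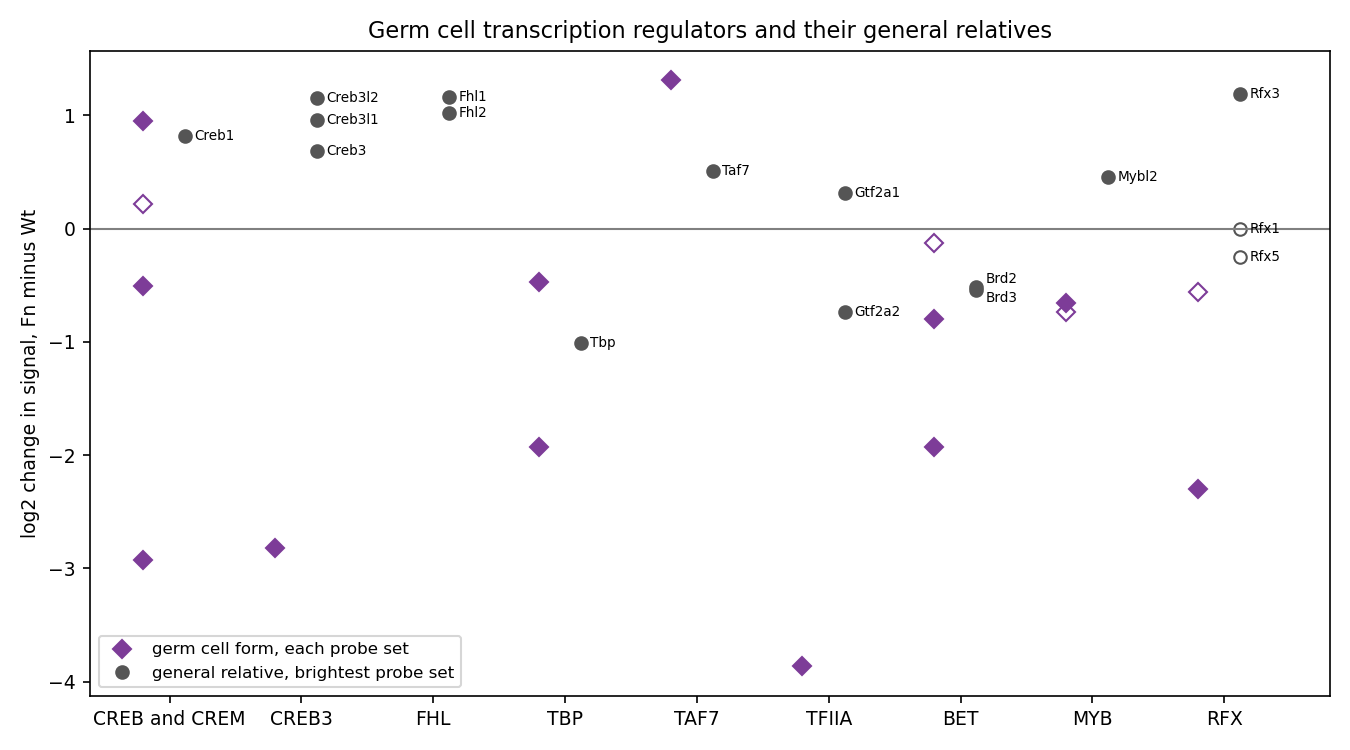
Log2 change in signal (Fn minus Wt) by family. Diamonds are the germ cell forms, one for each tested probe set, and circles their general relatives by the brightest tested probe set. Open symbols did not pass an adjusted p under 0.05. Fhl5 was not tested and has no diamond. Circles of the TBP and BET families lie below 0, and those of the CREB, CREB3, FHL, TAF7 and MYB families above it.

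Genes listed here as needing CREM in spermatids gave a mixed picture, and several were dim at P21 in both genotypes. Of 9 such genes, 7 were tested, of which 4 were lower, none higher and 3 not called, where 24.7% of all genes were lower and 44.9% higher (limma, and at an unadjusted p under 0.05 none was higher either). Of the 4, 3 (Odf1, Smcp and Prm2) passed the filter only through their Wt signals and so could only be lower, which leaves Ldhc. Odf1, an outer dense fibre protein of the sperm tail, gave 16.1, 27.4 and 10.1 in Fn and 1232, 738.0 and 1124 in Wt, lower by at least 20.99-fold when Fn was set at the filter level. Smcp, which encodes a capsule protein of sperm mitochondria, gave 2.4, 2.7 and 1.7 in Fn and 1336, 910.2 and 1210 in Wt, at least 23.7-fold lower. Both lay under the filter level in Fn and far above it in Wt.

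Ldhc, the testis lactate dehydrogenase, which is already made in spermatocytes, gave 7218, 10132 and 6405 in Fn and 26918, 26181 and 26375 in Wt, a log2 change of -1.77 (SE 0.14, limma adjusted p = 6.2e-06). Prm2, a protamine of condensing sperm chromatin, passed the threshold narrowly (limma adjusted p = 0.047) although its signals overlapped and only Wt brought it past the filter, at 27.3, 22.9 and 41.2 in Fn and 229.7, 83.5 and 34.8 in Wt, and the call was lost in 7 of 15 alternatives, among them without Fn replicate 1 or Fn replicate 2 (adjusted p = 0.10 each). Without Wt replicate 1 or 2 it fell below the filter. Prm1 (-1.39, 95% interval -2.69 to -0.09, limma adjusted p = 0.060), Camk4 (0.06, -0.82 to 0.94) and Ace (0.10, -0.29 to 0.48) were not called. Camk4 was read by 1 of 5 probe sets and Ace by 1 of 2. Which of their transcripts these read was not given, so the values do not settle whether transcripts that need CREM changed. The median of the 7 tested genes was -1.57, or -1.39 with the dimmest genes set at their bounds, against 0.32 over all genes. Since 3 of the 7 could only be lower, and -1.57 is the value of Prm2, 1 of those 3, this median is no measure of the list. The rest were Ldhc at -1.77, Prm1 at -1.39, Camk4 at 0.06 and Ace at 0.10.

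Genes known to need A-MYB in pachytene spermatocytes were lower wherever measured. Of 8 such genes, 6 had a probe set of their own, and 6 of 6 were lower in Fn, where 24.7% of all genes were lower, with a median log2 change of -1.25. Ccna1, the cyclin of late meiotic prophase, gave 25.2, 41.2 and 27.3 in Fn and 2199, 2016 and 2620 in Wt, at least 47.2-fold lower, and passed the filter only through Wt, which leaves 5 genes whose signals passed it in both genotypes. Piwil1, a piRNA-binding Argonaute protein, gave 1308, 2100 and 1199 in Fn and 5037, 6235 and 6315 in Wt, a log2 change of -1.97 (SE 0.19, limma adjusted p = 2.6e-05). For both, all Fn signals lay well below all Wt signals. Mael and Tdrd5, further piRNA pathway genes, changed by -0.89 (SE 0.06, limma adjusted p = 1.7e-06) and -1.18 (SE 0.11, 2.5e-05). Ccna1 and Piwil1 are also pachytene markers, Prm1, Prm2 and Smcp are also markers of elongating spermatids, and the study picked Ccna1 and Piwil1 from these samples, so these lists are not independent of one another or of the study's choice.

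Most other regulators of germ cell transcription were lower in Fn. Of 10 genes, 8 were lower and 2 higher, with a median log2 change of -0.94, where 24.7% of all genes were lower and 44.9% higher. Of the 8, 2 (Spz1 and Zmynd15) passed the filter only through Wt and so could only be lower. Ovol1, another of the 8, was picked by the study from these samples as a lowered gene, so its direction on these arrays is not independent evidence. The study also reported it lower by real-time RT-PCR, without showing the values. Ybx2 (MSY2), which binds and stores messenger RNA of late germ cells, gave 2621, 3446 and 2993 in Fn and 12888, 12987 and 15682 in Wt, a change of -2.20 (SE 0.11, limma adjusted p = 4.7e-07). Spz1, a bHLH-zip protein of the testis, gave 10.8, 8.2 and 4.7 in Fn and 1004, 615.8 and 827.6 in Wt, at least 16.7-fold lower. Tcfl5, a bHLH factor of spermatocytes and spermatids, changed by -1.13 (SE 0.08, limma adjusted p = 4.2e-06). The 2 higher genes were Stra8, which opens meiosis in preleptotene cells, at 3339, 3101 and 3117 in Fn and 1575, 1449 and 1275 in Wt (1.16, SE 0.10, limma adjusted p = 1.2e-05), and Taf4b, a TFIID subunit needed in spermatogonia, at 2900, 2635 and 2679 in Fn and 1633, 1391 and 1278 in Wt (0.94, SE 0.11, 7.2e-05). In both, all Fn signals lay above all Wt signals, as did the sums of the spermatogonial markers.

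**Figure D4:**
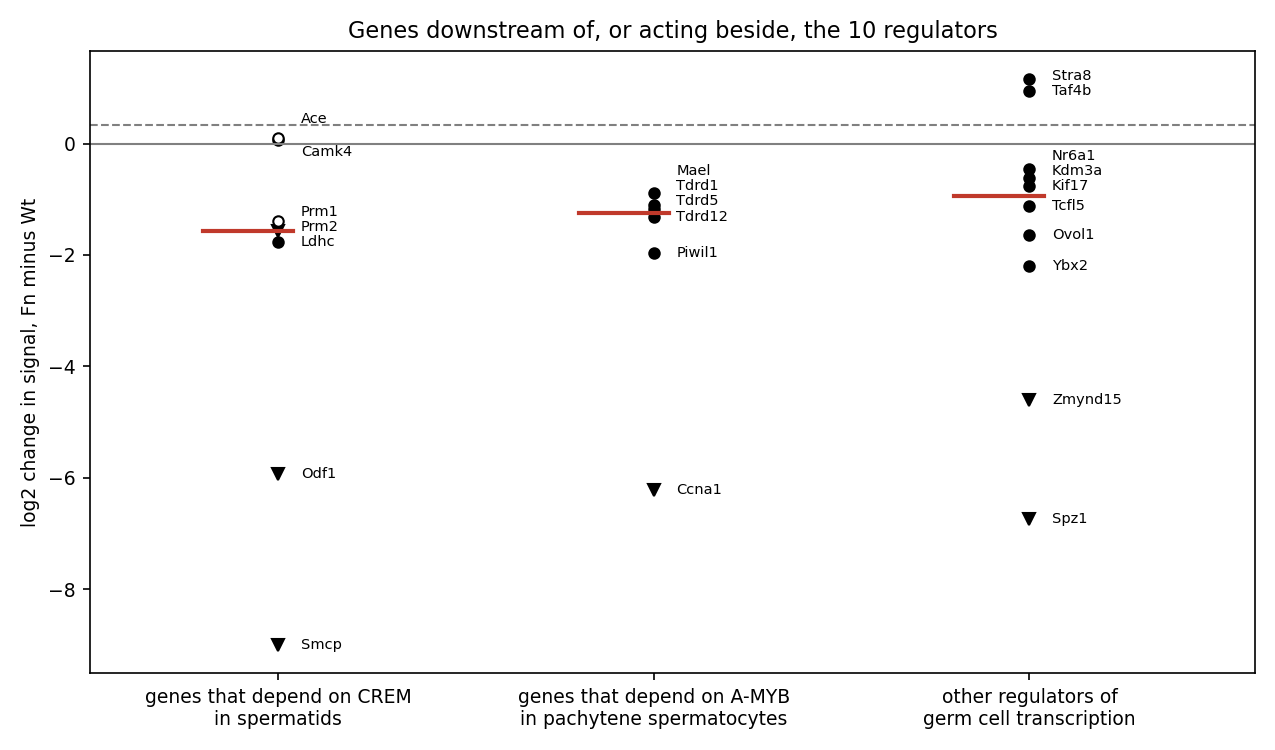
Log2 change (Fn minus Wt) in the signal of tested genes listed as depending on CREM, genes that depend on A-MYB and other regulators of germ cell transcription. Filled symbols passed an adjusted p under 0.05, triangles mark genes whose Fn mean was under the filter level so that the fitted change is not a measured fold, and red bars are list medians (-1.57, -1.25 and -0.94). Genes drawn as triangles could only be lower, and the first median is the value of such a gene, Prm2. A solid line stands at 0 and a dashed one at 0.32, the median of all genes. Each of the 6 genes that depend on A-MYB lies below 0.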

How the data were processed

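RNA of 3 Fn and 3 Wt testes was hybridised to 1 array each. The values deposited by the authors were signals from MAS5, that is, 1 linear intensity for each probe set. They had been scaled so that the mean without the top and bottom 2% was 498.4 to 498.6 on every array. The version of MAS5 was not given, and the study's methods name GeneSpring without a test. Signals were converted to log2 here (1 zero set to 0.1). Probe sets at or above the 40th percentile of mean log2 signal, a signal of 48.0, were tested with limma 3.58.1 in R 4.3.3 (lmFit and eBayes with an intensity trend, two-sided, Benjamini-Hochberg adjustment over 27022 probe sets). The script was tested on simulated data. Data handling used pandas 2.3.3 and matplotlib 3.10.9.

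Gene names came from the platform annotation, in which 34945 probe sets named 1 gene, 932 several and 9160 none. Where a dim genotype lay under the filter level, a lower bound on the fold was computed from that level. Promoters were matched by symbol (8 of 10 genes). Detection calls were not used here.

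Every probe set of the 10 genes was described. From each other list the text names the 4 genes with the smallest adjusted p and any called against the direction of the list's median. Genes named beyond this rule (Gtf2a1, Taf7, Rfx1, Rfx5, Fhl3, Myb, Prm1, Camk4, Ace, Zmynd15, Ovol1 and single markers of cell types) were chosen after their values were seen. The genes and lists were chosen with earlier results of these data known.

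Titles number the replicates of each genotype 1 to 3. Deviations from the genotype means correlated at 0.131, 0.123 and 0.159 between same-numbered Fn and Wt arrays and at -0.15 to 0.035 between the others, so same-numbered arrays were treated as pairs in the blocked alternative, on this check of the values alone. The fit without a block was kept as the main one. Alternatives were 3 other scalings, 3 other filters, a pseudocount of 16, 2 other priors, array weights, the replicate block, 2 other call thresholds, the mean over a gene's probe sets (relatives only) and leaving out each array. For the higher relatives and the named genes of the other lists they were added after the data were seen.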

Additional observations from a re-analysis of the deposited data

How the results depend on the processing

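The number of probe sets of the 10 genes that were lower in Fn was 11, and 10 to 13 under every alternative that kept a test, but 6 when only changes of more than 2-fold counted, and 10 to 13 when 1 array was left out. With the replicate block (paired fit) it was 12 lower and 2 higher. That fit added the call of Mybl1 1456951_at (adjusted p = 0.0081) and changed no other call of the 10 genes or of the 20 genes taken by rule from the other lists. The number higher was 2, but 1 under quantile normalization, median centring, 75th percentile centring, no filter, the 20th percentile filter, an adjusted p under 0.01 and the 2-fold threshold, and 1 to 2 with 1 array left out. The probe set lost was Crem 1430598_at, and Taf7l was higher in all. Of the general relatives, 4 were lower, 1 by more than 2-fold, and 10 were higher, 4 by more than 2-fold. With the mean over a gene's probe sets, 3 were lower and 7 higher. Under median or 75th percentile centring, 5 were lower and 8 higher, and at an adjusted p under 0.01, 4 were lower and 8 higher. Brdt 1444667_at turned to 0.047 with array weights and ranged over -0.30 to 0.089 when 1 array was left out, positive without Fn replicate 3, and the Mybl1 probe set ratio ranged over -0.23 to 0.14 when 1 array was left out.

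The arrays had been scaled to one mean, while the median log2 change of all tested probe sets was 0.35. It was 0.25 after quantile normalization, 0.19 after median centring and 0.22 after 75th percentile centring, so the 0.22 of Crem 1449037_at lies below the median of all probe sets as deposited. Median centring gave 6180 lower and 8170 higher probe sets over the array, against 5453 and 11306. With 3 arrays a genotype, changes below about 2-fold in dim probe sets have wide intervals, and signals near the filter level give bounds only.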
